A study of Mus musculus with 6 samples.

Results

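The cells described here are the 5133 of 52594 segmented cells in a section of mouse bone marrow that held 3 or more counts of Acan, the gene of aggrecan, the large proteoglycan of cartilage. They made up 9.76% of the cells of the section (95% exact binomial interval 9.51 to 10.02, which like every interval below covers counting error only). They were chosen by that count alone and are called Acan-positive cells. The Acan values are therefore given as a description, and everything else is set beside the other 47461 cells of the section.

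The section was 5 µm thick and came from formalin-fixed, paraffin-embedded leg bone of a wild-type C57BL/6 mouse at postnatal day 8, with no treatment. It was measured by Xenium, an in situ assay in which probes bound to transcripts are decoded by imaging and counted per segmented cell, on a panel of 477 genes. The series holds 6 Xenium sections, 1 per condition, with 521938 cells in all. It was made to find the cells that surround maturing red blood cells. The sections are fetal liver of embryonic days 13.5 (E13.5) and 14.5 (E14.5) and bone marrow of postnatal day 8 and of 89 weeks. The others are spleen of an untreated adult mouse and of a mouse treated with phenylhydrazine (PHZ). The E13.5 liver and the 89-week marrow were measured on a panel of 5050 genes, and the rest on the panel of 477. Because only 1 section was made at postnatal day 8, no value has a replicate, cells are not counted as replicates, and no test was run.

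Long bones grow at cartilage plates near their ends. There, chondrocytes first rest, then divide in columns, then enlarge, and the matrix they leave is invaded by vessels and resorbing cells from the marrow side and replaced by bone. Chondrocytes are kept in that identity by the transcription factor Sox9, and they fill the space around them with type II collagen, from Col2a1, and aggrecan, so that they come to lie far apart. A sheath of fibroblast-like cells that make type I collagen, the perichondrium, surrounds the cartilage and continues along the shaft as periosteum.

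Acan counts per Acan-positive cell ran from 3 to 237, with a median of 9 and quartiles of 4 and 19. These cells held 94.2% of the 89570 Acan counts inside cells. Of the others, 43428 cells held no Acan count, 2835 held 1 and 1198 held 2. Just outside the threshold, cells with 2 counts had 3.29 Col2a1 counts per cell, a median area of 135 µm² and 3 or more Col2a1 counts in 32.9% of cells. Just inside it, the 776 cells with 3 counts had 3.69 Col2a1 counts per cell, a median area of 109 µm² and 3 or more Col2a1 counts in 34.8%. The threshold thus lay within a continuous range, and cells with 10 to 19 or 20 and more Acan counts held 3 or more Col2a1 counts in 88.5% and 98.9% of cells.

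**Figure D1:**
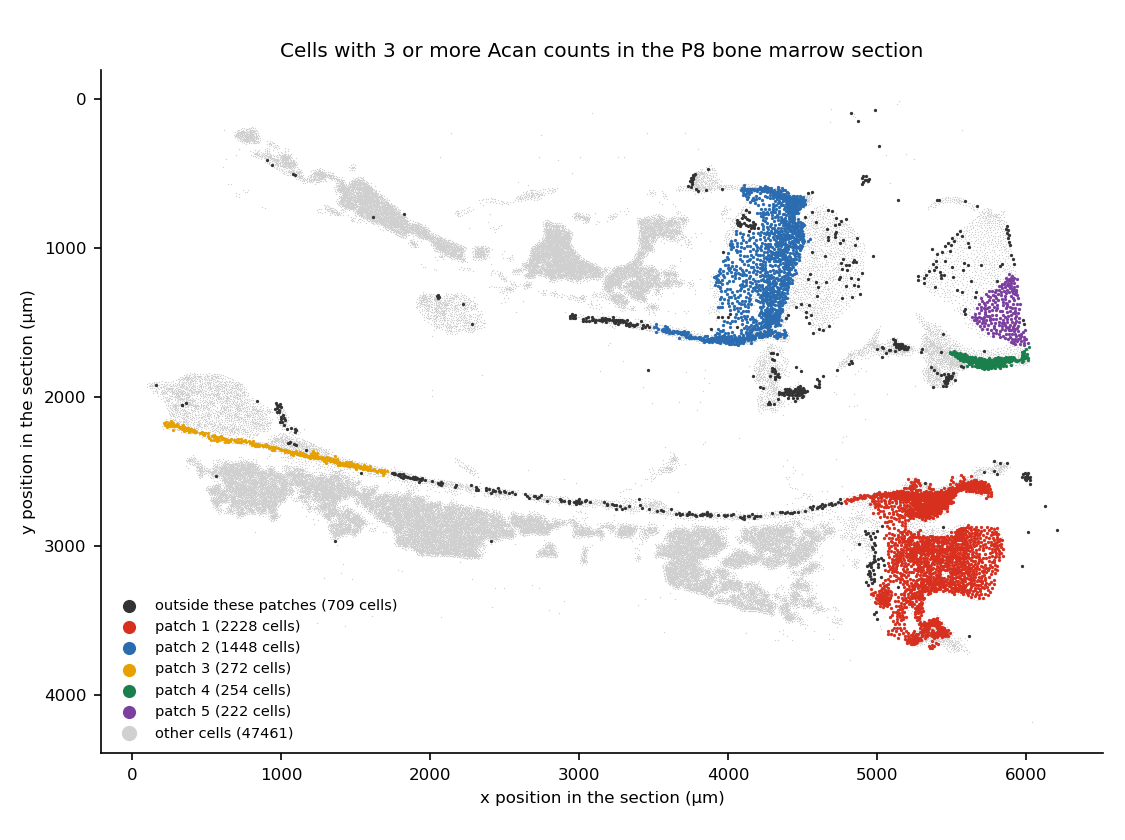
Position of every segmented cell in the section, in µm on both axes. Grey points are the 47461 other cells, and coloured points are Acan-positive cells, coloured by the patch they belong to or black outside these patches. Patches 1 and 2 are broad blocks of 2228 and 1448 cells, patch 3 is a thin strip of 272 cells, and patches 4 and 5 lie beside each other with 254 and 222 cells.

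Acan-positive cells lay in patches. Joined by steps of up to 30 µm between cell centers, they formed 220 groups, of which 5 had 100 or more cells and together held 4424 cells, or 86.2% of all. Another 127 cells stood alone. The patches are parts of 1 section and not replicates.

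The cartilage genes went with Acan. Expression is given as CPM, the gene's share of all counts summed over the cells of a group, and as the ratio of Acan-positive to other cells. Col2a1 was at 130027 CPM against 3379, a ratio of 38.5 (37.9 to 39.1), or 19.1 against 0.405 counts per cell. Comp, a matrix protein that binds collagen, was at 62982 against 582 CPM, 108 times higher (104 to 112). Sox9 was at 15530 against 272 CPM, 57.0 times higher (54.1 to 60.2). Ucma, a matrix protein of the upper growth plate, was at 12476 against 245 CPM, 50.8 times higher (48.1 to 53.8), and Otor, a small secreted cartilage protein, was 18.4 times higher (15.5 to 21.9) at only 615 CPM. All 5 counted genes of the cartilage list besides Acan were thus at least 2-fold higher, where 13.4% of the 454 counted genes were (61 genes). The scaling mattered, since per cell area 23 genes were at least 2-fold higher and the Col2a1 ratio was 17.3, and over the nucleus alone 93 genes were and the Col2a1 ratio was 88.5. Lower ratios were commoner, with 256 genes, or 56.4%, at least 2-fold lower and a median ratio over all counted genes of 0.405.

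When every cell was thinned to 50 counts, so that depth was the same, Col2a1 was seen in 71.5% of Acan-positive cells and in 3.05% of other cells, against 80.9% and 10.4% at full depth. Other cells were put into classes by the marker list with most counts in them. In cells of the erythroid class, which should lack Col2a1, the thinned share was 0.629%. For Comp the thinned shares were 61.5%, 1.60% and 0.319%, and for Sox9 43.8%, 1.08% and 0.290%. The thinning left out 571 Acan-positive and 7014 other cells that were shallower. The 1933 other cells with 3 or more Col2a1 counts had a median of 14 transcripts and an upper quartile of 41, so most of them were left out. The fall from 10.4% to 3.05% is thus not from equal depth alone.

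**Figure D2:**
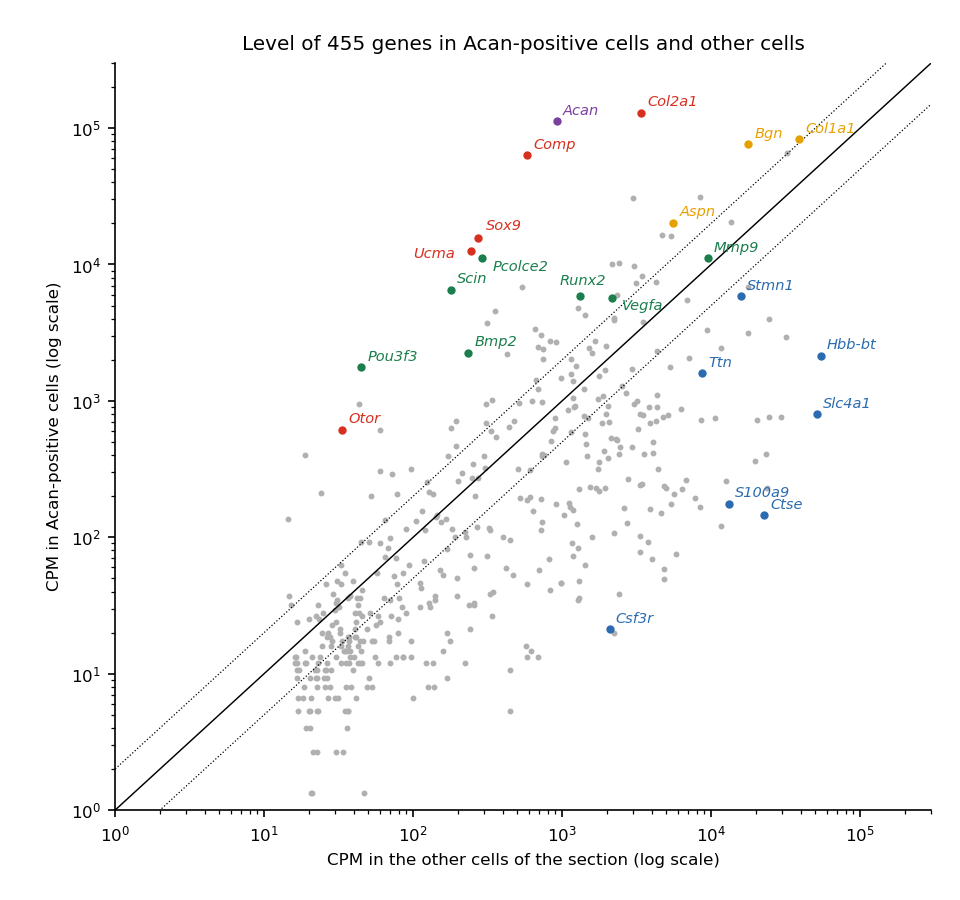
Level of each gene with 100 or more counts in the section, Acan included, as CPM in the other cells (horizontal, log scale) and in Acan-positive cells (vertical, log scale). The solid line marks equal levels and the dotted lines 2-fold differences. Cartilage genes such as Comp and Sox9 lie far above the lines, and erythroid and neutrophil genes such as Slc4a1, Hbb-bt and Csf3r far below.

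Not every Acan-positive cell looked like cartilage, and here the label of cartilage cells did not hold in full. Of the 5133 cells, 3596 (70.1%, 68.8 to 71.3) held 3 or more Col2a1 counts, and 979 (19.1%, 18.0 to 20.2) held none. Type I collagen was common as well, since 62.4% held 10 or more counts of Col1a1 and Col1a2 together, against 22.7% of other cells. These shares are not scaled to area, and the median outlines were 184 and 46.5 µm². Type I collagen was also widespread. Outside every cell lay 46.1% of Col1a1 and 40.7% of Col1a2 transcripts, and 53.4% of cells of the erythroid class held Col1a1. The cells without Col2a1 were not spread evenly. In patch 3, the thin strip, only 1 of 272 cells (0.368%) had 3 or more Col2a1 counts and 90.4% had none, whereas patches 1, 2, 4 and 5 had 3 or more in 81.2%, 75.4%, 92.5% and 83.3% of cells. Most of the 979 cells without Col2a1 lay elsewhere than in the strip. The 709 Acan-positive cells outside these patches held 296 of them, and 38.6% of the 709 had 3 or more Col2a1 counts, while patches 1, 2 and 3 held 192, 228 and 246.

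The 1537 Acan-positive cells with under 3 Col2a1 counts were compared with the 3596 others, a split made after these values were seen. Besides Acan and Col2a1, 101 of 207 genes with 100 or more counts (48.8%) were at least 2-fold higher in them and 26 (12.6%) at least 2-fold lower. Col2a1 and Acan took 185633 and 145058 CPM in the 3596, which lowers the CPM of every other gene there. Markers of other cell types were among the higher genes, such as Myl9 (8.27 times), Pf4 (4.79), Hbb-bt (3.99) and C1qb (3.79). Gng11 (1.28) and Cd93 (1.16) were short of 2-fold. Transcripts from neighboring cells were not tested for. Aspn, a small proteoglycan of tendon and periosteum, was at 59806 against 2953 CPM (20.3 times). Ptn, a growth factor of bone-forming and mesenchymal cells, was at 46231 against 3379 CPM (13.7 times), and Serpinf1 was at 39785 against 5816 (6.84 times). Sox9 was at 1847 against 21534 CPM, Comp at 5862 against 88049 and Pcolce2 at 1163 against 15462. Their median area was 99.1 µm² against 245, with 132 against 104 transcripts per cell. For comparison, cells of the osteogenic class had 21803 CPM of Aspn and 155819 of Col1a1, and cells of the fibroblast class 49967 and 57761. The osteogenic class was set by Col1a1 and Col1a2 alone, and Aspn is on the list that set the fibroblast class. The high Col1a1 of the former and Aspn of the latter thus follow in part from the class rule. So within the Acan rule there was a cartilage-like majority with Col2a1, Sox9 and Comp and a minority with less of these. Comp in the minority was still above the 582 CPM of other cells. It was also above the 1760 and 1736 CPM of the osteogenic and fibroblast classes. Sox9 in the minority was above the level of other cells as well. Col2a1, which the split held low, was at 3319 CPM there, against 3379 in other cells. In the minority, Bgn and Col1a1 stood at 112874 and 106968 CPM, 1.88 and 1.47 times the level of the majority. They and Col1a2 were thus high in the majority as well.

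The genes outside the cartilage list that stood highest were Pou3f3, a transcription factor, 39.3 times higher (34.4 to 45.1), Pcolce2, an enhancer of procollagen cleavage, 38.5 times (36.5 to 40.6), Scin, an actin-severing protein, 36.7 times (34.3 to 39.3), Lipg, endothelial lipase, 21.9 times (18.96 to 25.5), and Fxyd3, 21.5 times (17.2 to 27.0). The levels of these ran from 404 CPM for Fxyd3 to 11101 CPM for Pcolce2. None of them reached 2-fold above other cells in patch 3, where Pcolce2 stood at 415 CPM and Lipg and Fxyd3 had no count.

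By CPM, signals of chondrocyte maturation were mostly higher. Per cell area, 23 genes in all were at least 2-fold higher, and the counts by list, here and elsewhere, were not made on that scale. Of the 8 genes on this list, 7 were at least 2-fold higher, against 13.4% of all counted genes, and 1 was between the limits. Bmp2, a bone morphogenetic protein made by enlarging chondrocytes, was 9.61 times higher (8.94 to 10.3). Runx2, which drives chondrocyte enlargement and bone formation, was at 5908 against 1321 CPM (4.47 times, 4.31 to 4.64). Vegfa, which draws in vessels, was 2.64 times higher (2.55 to 2.73), Wif1, a secreted Wnt inhibitor, 2.98 times, Pdgfa 2.97 times, Ptn 3.51 times and Sfrp1, another Wnt inhibitor, 2.13 times. Igf1 had a ratio of 0.515. Not all of these went with Col2a1. In the cells with 3 or more Col2a1 counts, Ptn was at 3379 CPM, below the 4684 of other cells, and Sfrp1 at 1011 against 665, short of 2-fold. The large share of Col2a1 and Acan in these cells lowers such CPM. The osteogenic class also had more Ptn (18895 CPM), Wif1 (6021) and Sfrp1 (1765) than the Acan-positive cells, at 16449, 4259 and 1419. The fibroblast class had more of the same genes, with Ptn at 43468.9 CPM, Wif1 at 6167 and Sfrp1 at 2562. It also had more Runx2 (7381.5 CPM) and Pdgfa (4272.5) than the Acan-positive cells, at 5908 and 2714. Vegfa was at 7374 CPM in the muscle class, 4362 in the fibroblast class and 5687 in Acan-positive cells. Bmp2, at 2253 CPM in Acan-positive cells, was lower in each of these classes, with the fibroblast class highest at 1342. Of the 18 counted genes of the wider list of Wnt, BMP, PDGF and IGF signals, 10 were at least 2-fold higher, Fzd2, a Wnt receptor, among them with 3.08 times, and none at least 2-fold lower, against 13.4% and 56.4% of all counted genes. Of the 10, Ptn, Sfrp1, Igfbp3 and Pdgfra were short of 2-fold in the cells with 3 or more Col2a1 counts, with Igfbp3 at 1919 CPM against 2335 in other cells. The classical gene of enlarged chondrocytes, Col10a1, has no probe on this panel.

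By CPM, the osteogenic list was higher over all Acan-positive cells, and the fibroblast list was mixed. All 6 osteogenic genes were at least 2-fold higher, from Col1a2 at 2.04 times (2.02 to 2.06) and Col1a1 at 2.13 times to Bgn, biglycan, at 4.30 times and Runx2, which stands on both lists. In the cells with 3 or more Col2a1 counts, Bgn and Runx2 alone of the list reached 2-fold over other cells by CPM. Col2a1 and Acan took 185633 and 145058 CPM in these cells, which lowers the CPM of every other gene. Counts per cell were not compared for them. There Aspn was at 2953 CPM, below the 5573 of other cells, Serpinf1 at 5816 against 5382, Col1a1 at 72824 against 39161 and Col1a2 at 55305 against 32166. Of 17 genes of the fibroblast, perichondrium and tendon list, 8 were higher, 3 lower and 6 between the limits, where 13.4% and 56.4% of all counted genes were higher and lower. Of the 8, Ccdc80, Lum and Pcolce2 alone reached 2-fold in the cells with 3 or more Col2a1 counts, where Pdgfra was at 3601 CPM against 3121 in other cells and Htra3 at 1347 against 690. Ccdc80, a matrix protein, was at 30622 CPM (10.3 times) and Lum, lumican, at 10228 (4.25 times), while Dpt, Ccl11 and Pi16, genes of loose connective tissue fibroblasts, were at 0.334, 0.239 and 0.147 times. Of the low-oxygen and glycolysis list, Ndufa4l2, a hypoxia-induced mitochondrial protein, was 3.77 times higher and Hk1, hexokinase, was at 0.292 times.

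Marrow and muscle genes were low in Acan-positive cells. All 11 erythroid genes and all 13 neutrophil genes were at least 2-fold lower, with median ratios of 0.018 and 0.019. Slc4a1, the anion exchanger of red cells, was at 797 against 51038 CPM and Hbb-bt, a beta globin, at 2149 against 54391. Csf3r, the granulocyte growth factor receptor, was at 21.3 against 2082 CPM from 16 counts. Of the macrophage list 15 of 16 were lower, of skeletal muscle 14 of 14 and of megakaryocytes 4 of 5. Of the endothelium list 5 of 12 were lower, with a median ratio of 0.509, where 56.4% of all counted genes were lower, with a median ratio of 0.405. The 10 genes with the lowest ratios were Ctse (0.00643), Fcnb, Hemgn, Gata1, Csf3r, Rhd, Abca13, Ifitm6, Epor and S100a9 (0.0135), all of them expressed by erythroid or granulocytic cells. The osteoclast genes Mmp9 and Atp6v0d2 did not reach 2-fold, with 1.18 (1.15 to 1.20) and 1.34 (1.24 to 1.45). The other cells include the neutrophil class, where Mmp9 was at 28653 CPM, against 11124 in Acan-positive cells and 12866 in the osteogenic class. The Mmp9 ratio is therefore no measure of osteoclasts alone.

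Genes of dividing cells were at lower levels as well. All 4 were at least 2-fold lower, as were 56.4% of all counted genes, with Ube2c at 0.0494 times, Diaph3 at 0.155, Cenpf at 0.238 and Stmn1 at 0.368. The other cells include the dividing marrow, and against the osteogenic class, with 1560 CPM of Cenpf, Acan-positive cells had 906.

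**Figure D3:**
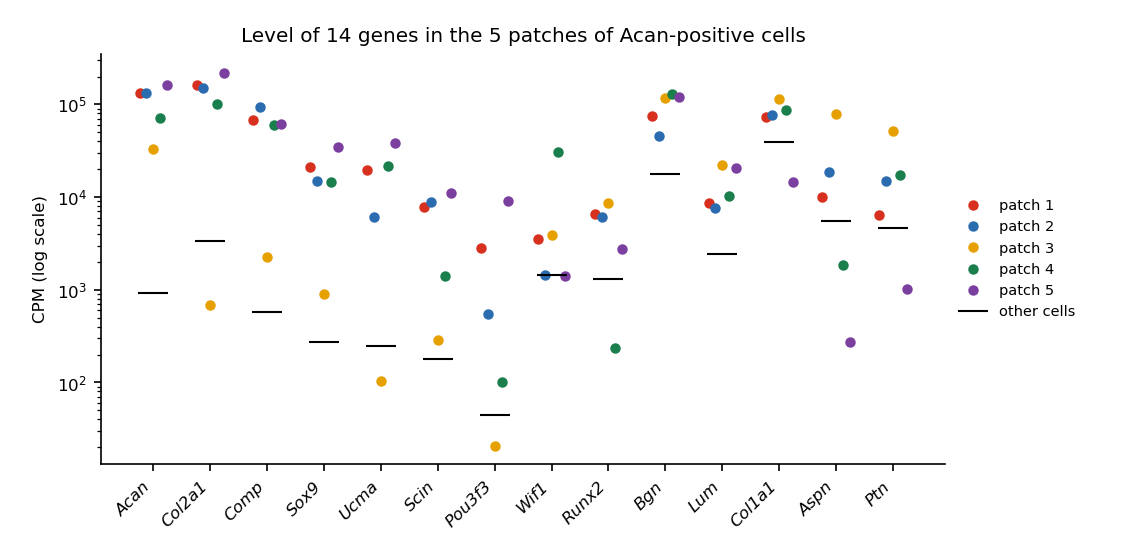
CPM (log scale) of 14 genes in each of the 5 patches of Acan-positive cells (colored points) and in all other cells (black bars). Patch 3 lies near or below the other cells for Col2a1, Ucma and Pou3f3 and highest for Aspn and Ptn; patch 4 is highest for Wif1 and lowest for Runx2; patch 5 is highest for Col2a1, Sox9, Ucma and Pou3f3.

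The 5 patches differed widely from each other. Only 12 of the 454 genes (2.64%) were at least 2-fold higher than in other cells in every patch. They were Comp, Sox9, Fibin, Ecrg4, Pmp22, Bgn, Lum, Muc1, Anxa2, Htra3, Sdc1 and A330076H08Rik, named because they are few. Lower genes were shared more widely, with 160 (35.2%) at least 2-fold lower in every patch. Col2a1 was at 162408, 149250, 685, 102019 and 220272 CPM in patches 1 to 5, so that patch 3 was below the other cells of the section. Sox9 was at 21380, 15082, 893, 14647 and 34390 CPM in the same order, lowest in the strip but still above the 272 of other cells.

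Within patch 3, Bgn and collagen I stood highest of all genes, followed by Aspn. Its Bgn was at 118793 CPM, Col1a1 at 113146, Col1a2 at 103741, Aspn at 78205, Ptn at 51632, Serpinf1 at 43058 and Lum at 22442, and its Acan, at 33362 CPM with a median of 5 counts per cell, was the lowest of the patches. Patch 4 had Col2a1 and Sox9 like the large blocks but Runx2 at only 237 CPM, against 6626 and 6079 in patches 1 and 2, and Wif1 at 31018 and Igfbp7, a secreted binding protein, at 45733, against 3495 and 6940 in patch 1. Patch 5 held the largest cells, with a median area of 449 µm², and the highest Ucma (37941 CPM), Pou3f3 (9038), Otor (3774) and Ndufa4l2 (14004), with Aspn at only 273 and Col1a1 at 14576 CPM.

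The large blocks were layered with distance from dense marrow, but not in the same way by the planned measure given further below. Distance was measured to the nearest marrow cell (erythroid, neutrophil, macrophage or megakaryocyte class) that had 5 or more such cells within 40 µm, in steps of 100 µm, for patches 1 and 2. This measure was chosen after the data were seen, and steps under 20 cells were left out. The 9 steps of patch 1 ran from 300 to 1200 µm and the 6 of patch 2 from 200 to 800 µm.

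By this measure, cells on the marrow side were large and rich in Bmp2, Pcolce2, Ccdc80 and Mmp9. Bmp2 was highest at 400 to 500 µm in patch 1, at 5940 CPM (5312 to 6621), and at 300 to 400 µm in patch 2, at 5316 CPM (4647 to 6054), and it was at 185 CPM (60.2 to 432) and 331 CPM (108 to 773) at its lowest, farther out. Pcolce2 was highest in the same steps, at 23613 and 22504 CPM. In patch 1 Pcolce2 and Ccdc80 had a low point at 800 to 900 µm, at 3669 and 7745 CPM, and were at 10405 and 39884 CPM in the farthest step, where Ccdc80 matched its nearest step (39604). Mmp9, a gelatinase of osteoclasts and other resorbing cells, was also high in the neutrophil class. It was at 45026 and 37804 CPM in the nearest step of each block and, from 500 µm on, at 4576 and 4722 CPM at most. In those nearest steps the vessel gene Cd93 also stood at 3872 and 4131 CPM and the osteoclast gene Atp6v0d2 at 4013 and 1681, and their part in the Mmp9 level was not tested. Vegfa was at 11160 and 13594 CPM in the nearest steps.

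Comp came next, with its highest level at 500 to 600 µm in both blocks, 118730 CPM (115571 to 121953) and 114819 CPM (111867 to 117829). Farther out the cells were smallest and closest together. At 700 to 800 µm the median area was 132 µm² in patch 1 and 129 µm² in patch 2, against 268 and 355 µm² at 400 to 500 µm, and 39.1 and 34.6 cell centers lay within 40 µm of a cell. Stmn1, a microtubule regulator of dividing cells, was highest in this same step, at 10100 CPM (9075 to 11208) and 8546 (7135 to 10154). The other 3 cell cycle genes, Cenpf, Diaph3 and Ube2c, were highest 1 step nearer the marrow in both blocks. Cenpf was at 1855 CPM (1459 to 2326) and 1037 CPM (748 to 1402) at 600 to 700 µm, and at 999 and 596 CPM at 700 to 800 µm. Diaph3 and Ube2c differed less between these steps, at 1509 and 594 then 1255 and 456 CPM in patch 1. In patch 2 they were at 1358 and 494 then 1192 and 464 CPM. For both genes the farther value lay within the interval of the highest in both blocks, and the Ube2c peaks rested on 24 and 20 counts. Stmn1 in patch 1 was at 9450 CPM at 600 to 700 µm, within the interval of its highest step. The order of these steps is thus within counting error for Diaph3 and Ube2c, and for Stmn1 in patch 1. The muscle genes Ttn and Des were also highest at 600 to 700 µm in patch 2, at 6842 and 3334 CPM. Slc40a1, the iron exporter ferroportin, was highest at 700 to 800 µm in both blocks, at 20656 and 6823 CPM. Slc40a1 is also made by macrophages, and the macrophage genes C1qb and C1qc were at 1227 and 799 CPM in that step of patch 1, where both had their highest level, and at 464 CPM each in that of patch 2, where C1qb had its lowest. Their part in the Slc40a1 level was not tested.

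In patch 1, Ucma and Sox9 were highest beyond that, on the side away from the marrow. In patch 2, Ucma was highest in the step of the smallest cells, and Sox9 was highest 1 step nearer the marrow. Ucma was at 211 CPM (77.5 to 460) in the nearest step of patch 1 and at 50474 CPM (47829 to 53228) at 800 to 900 µm, and it was lower again at 18709 and 6069 CPM in the last steps, from 1000 to 1200 µm. In patch 2 it was at 96.1 CPM and, in its last step, at 20272 CPM (18064 to 22675). Sox9 in patch 1 was at 3133 CPM nearest the marrow and 49287 CPM (46439 to 52265) at 1000 to 1100 µm, with Pou3f3 at 141 and 11428 CPM and Otor at 70.4 and 4280 CPM in the same steps. Cells there were large again, with a median area of 344 µm², and Vegfa was back at 13061 CPM. Patch 2 did not reach so far, and its Sox9 lay between 20868 and 23266 CPM from 500 µm on. Col2a1 was higher with distance in both blocks, from 77836 to 304335 CPM in patch 1 and from 93669 to 222855 in patch 2, where the first and last of these are the nearest and the farthest steps.

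**Figure D4:**
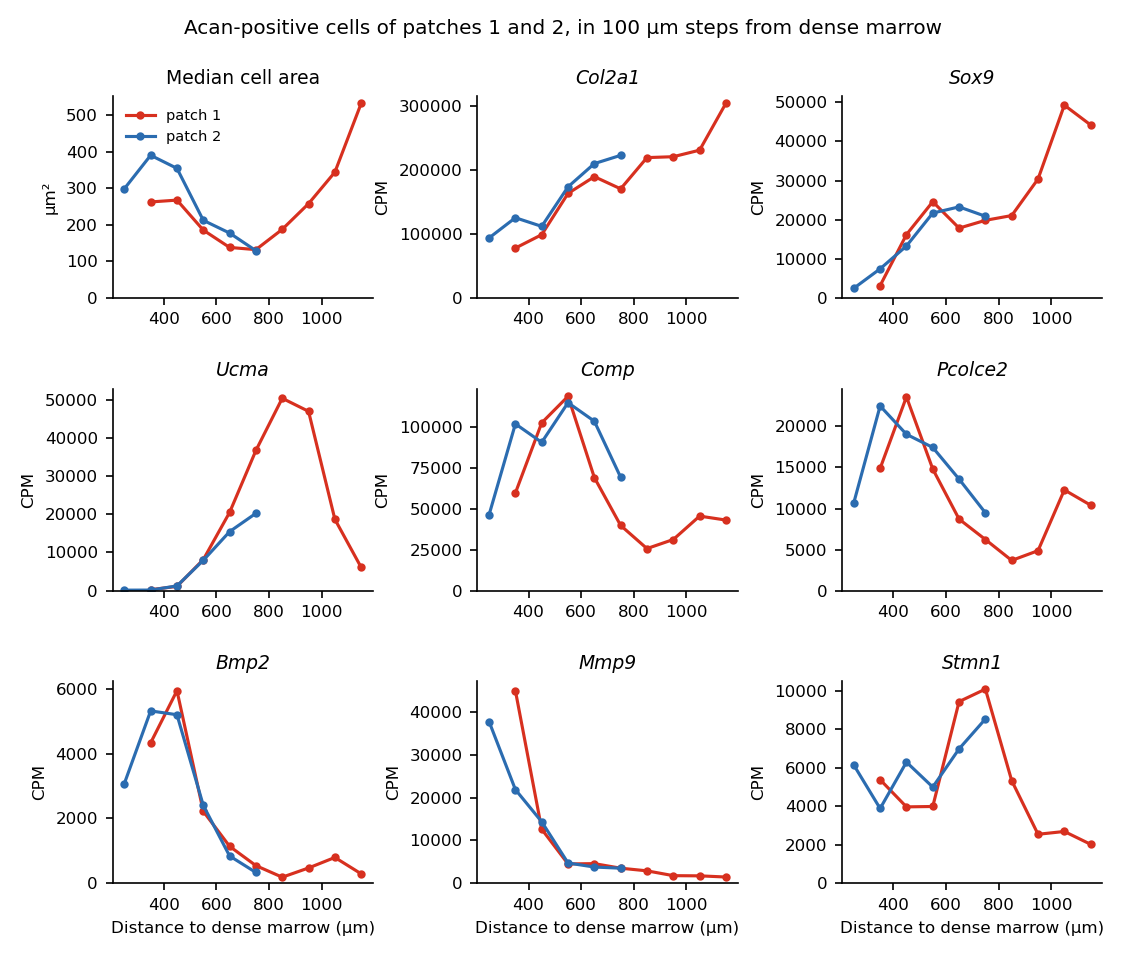
Median cell area (µm²) and CPM of 8 genes in Acan-positive cells of patch 1 (red) and patch 2 (blue), each point a step of 100 µm in the distance to dense marrow (horizontal, µm, at the middle of the step). Bmp2, Pcolce2 and Mmp9 are highest near the marrow, Comp at 500 to 600 µm and Stmn1 where cells are smallest. Ucma and Sox9 are low near the marrow in both patches, and only in patch 1 are they highest beyond the step of the smallest cells.

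The planned measure was the distance to the nearest marrow cell of any kind, stray ones included. By it the order was not the same, and parts of it turned round. In both blocks the smallest cells then lay next to the marrow, with median areas of 86.6 and 80.5 µm² within 25 µm against 232 and 300.2 µm² at 200 to 400 µm. In patch 2, Bmp2 was at 683 CPM within 25 µm and 4783 at 200 to 400 µm, Pcolce2 at 819 and 22711 and Mmp9 at 3551 and 16817. In patch 1, Bmp2 was at 1894 and 1752 CPM in these steps, Pcolce2 at 6846 and 13501 and Mmp9 at 15586 and 7287. By that measure, Acan-positive cells within 25 µm had 20571 CPM of Col2a1, 93699 of Col1a1 and 40644 of Aspn, and those over 400 µm away 275689, 50864 and 248. Vegfa was at 2720 and 11572 CPM at these ends, and within patch 1 at 2768 and 14326 CPM, so that its high level on the marrow side was not seen. The 175 cells within 25 µm had a median area of 91.0 µm² and the 412 over 400 µm away 339 µm².

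Acan-positive cells were larger and more sparsely set than all other cells as 1 group, of which erythroid cells were the largest class. Their median segmented area was 184 µm², with quartiles of 101 and 342, against 46.5 µm² (quartiles 31.2 and 90.9) in other cells. The nucleus did not differ as much, with medians of 23.1 and 21.9 µm², so that it filled 11.8% of the outline against 53.5%. The outlines are nuclei expanded by the software until they meet a neighbor or a set limit, so that area and spacing are not independent. Depth was nearly the same, with medians of 113 and 109 transcripts per cell, and Acan-positive cells therefore held 63.7 against 257 transcripts per 100 µm². Within 40 µm of an Acan-positive cell lay 27.6 ± 16.9 other cell centers (mean ± SD over cells), and 85.6 ± 43.7 around the other cells. By patch the means were 28.7, 25.7, 36.5, 47.1 and 9.68, with patch 5 the sparsest. Other classes outside the marrow were also large and sparse, with medians of 125 µm² and 122 µm² and 38.4 and 38.5 cells within 40 µm for the osteogenic and muscle classes. The other cells with 3 or more Col2a1 counts had a median area of 274 µm² and 21.5 cells within 40 µm. Acan-positive cells with under 3 Col2a1 counts, at 99.1 µm² and 38.5 cells, were smaller than the osteogenic class.

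**Figure D5:**
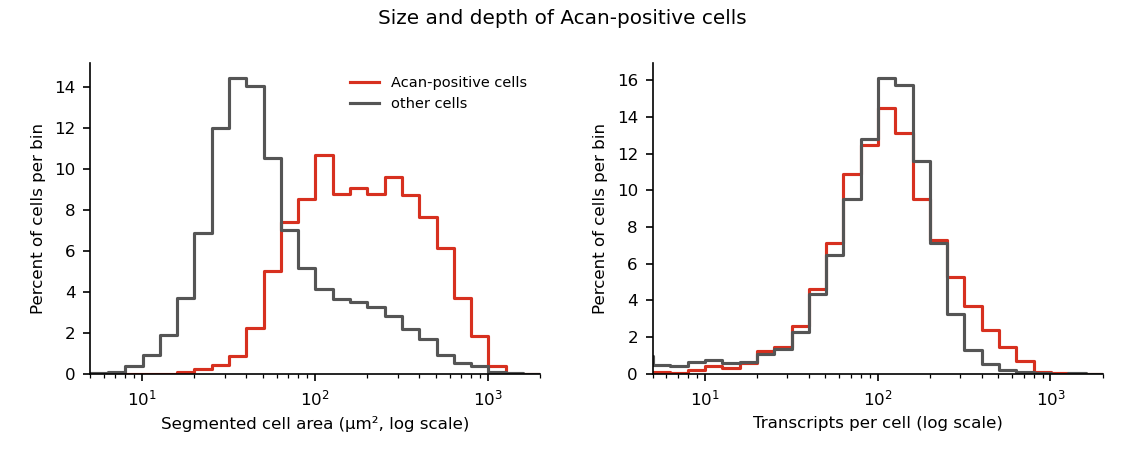
Distribution of segmented cell area (left, µm², log scale) and of transcripts per cell (right, log scale) in Acan-positive cells (red) and other cells (grey), as percent of cells per bin. The areas are shifted, with medians of 184 and 46.5 µm², and the depths overlap, with medians of 113 and 109.

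The neighbors of Acan-positive cells were mostly their own kind. In a Delaunay network of all cell centers with edges of up to 400 µm, 76.1% of their 31060 contacts were with Acan-positive cells, which received 9.86% of the contacts of all cells. Each contact was counted at both of its ends. Contacts that share a cell are not independent, so no interval is given for these shares. Osteogenic cells took 12.6%, close to their 10.8% over all cells, unclassed cells 5.90% and fibroblasts 4.04%, against 2.47% over all cells. Erythroid cells, with 48.4% of all contacts, took 54 contacts or 0.174%, and no megakaryocyte was in contact with an Acan-positive cell. Only 194 Acan-positive cells (3.78%) had no contact of their own kind. The cells with under 3 Col2a1 counts had 50.8% of their contacts with Acan-positive cells, 30.1% with osteogenic cells and 11.8% with fibroblasts, against 86.9%, 5.18% and 0.743% for those with 3 or more. Edges between Acan-positive cells had a median length of 15.99 µm, against 7.86 µm between other cells.

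Acan counts in the other cells were linked to place. Those within 10 µm of an Acan-positive cell held 0.899 Acan counts per cell (0.849 to 0.951), those 30 to 50 µm away 0.257 and those 200 to 400 µm away 0.0133 (0.0116 to 0.0152). How much of this is cells with little Acan and how much is transcripts assigned to a neighbor was not tested. The rule also left out cells with cartilage transcripts. There were 1933 other cells with 3 or more Col2a1 counts, which held 13.2% of the Col2a1 counts inside cells, and 1385 of them fell in no class, with a median of 10 transcripts and an area of 296 µm². Within 40 µm of these lay 16.9 cell centers on average, so that they were sparsely set as well.

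The table of single transcripts, from which the counts were made, gave the place of each, which the rule did not use. At the quality score of 20 that the counts rest on, 25.4% of the transcripts in Acan-positive cells lay over the nucleus, against 52.0% in other cells. The nucleus filled a median of 11.8% and 53.5% of the outline in these groups, so the shares are not on an equal base. In Acan-positive cells, Acan was near the value of all transcripts with 24.4%, Comp had 22.9%, Col2a1 19.2%, Sox9 27.9%, Runx2 45.4% and Vegfa 50.2%. Outside every segmented cell lay 10.6% of all gene transcripts, with a median over genes of 3.89%, and 38.0% of Col2a1, 46.1% of Col1a1, 19.1% of Ucma and 15.8% of Acan and 7.91% of Sox9.

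Acan was rare in the other 5 sections. The E14.5 fetal liver, on the same slide and panel, had 607 Acan counts among 117329 cells and 2 cells with 3 or more. The untreated and the PHZ-treated spleen had 290 and 286 Acan counts and no such cell, which allows shares of up to 0.0034% and 0.0039%. The E13.5 fetal liver and the bone marrow of an 89-week-old mouse, on a panel of 5050 genes, had 3 and 34 counts and no such cell, which allows up to 0.0698% and 0.00257%. The paper describes adult mouse marrow as separated from the bone before paraffin embedding. How much cartilage the 89-week section kept was not tested. With only the 2 such cells of the E14.5 fetal liver, Acan-positive cells of another age could not be compared. Cell names were shared with another section by 7 cells of this one, and doublets were not called.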

How the data were processed

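Acan-positive cells were found in 1 section of a mouse at postnatal day 8. The authors deposited, per segmented cell and gene, counts of decoded transcripts from Xenium Onboard Analysis 1.7.1.0, without normalization, with cell and nucleus areas and cell positions. Cells were nuclei expanded by that software. The deposited transcript table carries a quality score for each transcript, and the deposited counts were rebuilt from it at a score of 20 or more without a difference in any cell.

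All 52594 cells were kept. The section held 6446659 transcripts in cells, and the strongest negative control probe had 40 counts. CPM were computed from counts summed per group, in Python 3.11.15 with SciPy 1.17.1. Intervals (95%) are exact, for Poisson counts and their ratios and, as binomial intervals, for shares other than those of contacts. Calls are 2-fold ratios over genes with 100 or more counts. Other cells with 5 or more counts of a marker list took the class of the highest list. For this the osteogenic class used Col1a1 and Col1a2 alone, and the erythroid class left out Hbb-bt. Steps were checked on simulated data. Named genes were the cartilage list, the 10 highest and 10 lowest ratios among genes with 200 or more counts, and, of each other list, the 4 with most counts and any 2-fold higher. Genes outside this rule are named where they are few or show a place, and were chosen after their values were seen. The members and the 16 lists were chosen with earlier results of these data known. Intervals cover counting error only. With 1 section, 1 slide and 1 animal, differences between animals cannot be told from those between places.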

Additional observations from a re-analysis of the deposited data

Results flagged for a closer look

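Outside every segmented cell lay 16747 Acan transcripts, which no count per cell includes. The strongest negative control probe had 13 transcripts there. Of these Acan transcripts, 38.5% lay over 100 µm from any Acan-positive cell center and 16.3% at 10 to 20 µm, and for 62.0% the nearest cell of any kind was Acan-positive.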

How the results depend on the processing

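No paired analysis was possible because each condition has 1 section. The Col2a1 ratio stayed above 1 under the alternatives that do not select cells by Col2a1, and in all those run more genes were lower than higher. The share of Acan-positive cells was 7.31% at 5 or more Acan counts, 4.76% at 10 or more, 4.98% with 3 or more Acan transcripts over the nucleus and 10.1% of cells with at least 5 detected genes. The Col2a1 ratio was 37.0 and 30.2 at 5 and 10 Acan counts, 57.4 with 5 detected genes, 47.0 as counts per cell, 17.3 per cell area, 55.2 with the total without Acan, Col2a1, Col1a1, Col1a2 and Hbb-bt, 91.3 thinned to 50 counts and 88.5 over the nucleus. The genes at least 2-fold higher were 23 per cell area and 93 over the nucleus, against 61, and between 41 and 89 otherwise; the genes at least 2-fold lower were 148 of 252 where 1000 or more counts were asked for, since fewer genes were counted. At 5 and 10 Acan counts, the median area was 212 and 274 µm², the median depth 116 and 129 transcripts, the share of contacts among themselves 77.5% and 74.2%, and the cells within 40 µm 25.1 and 20.6. With at least 5 detected genes that share was 77.1%. In alternatives added after seeing the data, cells with 3 or more Col2a1 counts alone gave a Col2a1 ratio of 54.9, an area of 245 µm², 104 transcripts and 23.0 cells within 40 µm. The patches alone gave 43.3, 110 transcripts and 28.3 cells. Without other cells that hold 3 or more Col2a1 counts the Col2a1 ratio was 193.7. As 54.9 and 193.7 come from selecting cells by Col2a1, their rise was fixed by that choice. The thinned and the 5-gene settings also left out many other cells with 3 or more Col2a1 counts. Those cells held a median of 14 transcripts and 5 genes, and their part in the ratios of 91.3 and 57.4 was not tested. The 1385 unclassed cells with 3 or more Col2a1 counts held a median of 10 transcripts, and why they fell short of 3 Acan counts was not tested.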
